A study of Rattus norvegicus with 17 samples.

Results

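The NFAT genes encode transcription factors that share a Rel-like DNA-binding domain. Of the 5 genes listed for the family (Nfatc1, Nfatc2, Nfatc3, Nfatc4 and Nfat5), 4 were found by their symbol among the 11247 gene labels of the deposited table, and Nfatc4 was not analysed here. The 17 libraries came from primary cultures of rat cerebral cortex, labelled as glutamatergic neurons with astrocytes. Cultures infected with an empty vector were given the solvent DMSO (3 libraries), FK506 at 0.2 µM (3) or FK506 at 2.0 µM (3). Cultures infected to carry α-synuclein with the A53T change, a form tied to inherited Parkinson's disease, were given DMSO (2 libraries), 0.2 µM (3) or 2.0 µM (3). The lower dose is described as below saturation and the higher one as saturating. The promoter that drove A53T and the age of the cultures are not given in the sources used here.

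In resting cells NFATc proteins are phosphorylated and stay in the cytoplasm. Calcium activates the phosphatase calcineurin, which strips these phosphates so that NFATc proteins enter the nucleus, and kinases such as GSK3 and DYRK send them back out. FK506, bound to the immunophilin FKBP12, blocks calcineurin. Nfat5, also called TonEBP, lacks the calcineurin-binding region and is known for the response to osmotic stress. The study asks how calcineurin inhibition changes expression with and without A53T. The measurements are RNA levels and do not show where the proteins were or whether they were active.

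Values are gene counts normalized by the authors, with totals from 15091428 to 18335540 per library. The raw depth is unknown. Between the 3 libraries of A53T at 0.2 µM, the median squared difference was only 0.993 to 1.04 times what Poisson sampling gives. For replicate pairs of the other groups this ratio of squared differences was 1.46 to 13.7. The ratio treats normalized values as reads, which could not be checked without the raw depth. On this basis the 3 were counted as 1 sample, whose own spread the fit takes from the remaining groups. That sample stood apart, with a median gene level of 589 to 592 against 491 to 520 in all other libraries. In vector cultures, replicate 1 of the lower dose and replicate 2 of the higher one deviated most within their own groups, and in A53T so did replicate 1 of the higher dose. Changes are log2 fold changes of value + 1, a scale that understates the change of low genes, with the standard error from limma fitted to all genes. "Rose" and "fell" are used for an adjusted p under 0.05 over all genes (limma, Benjamini-Hochberg). No source used here says whether replicates were separate cultures, so the p-values speak of the spread among the libraries at hand, possibly a technical one.

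All 9 astrocyte markers and all 12 neuron markers on the lists had values. Of 12 microglial markers only the lysosomal gene Cd68 was measured, and of 6 endothelial markers only Flt1. Cd68 ran from 151 to 191 in vector in DMSO, from 616 to 667 in vector at 2.0 µM and from 646 to 754 in A53T at 2.0 µM. In A53T in DMSO Cd68 was between 299 and 307. Summed oligodendrocyte-lineage markers (6 of 6 measured, with Olig1 the most abundant) lay between 3287 and 3300.2 in vector in DMSO and between 1482 and 1549 at 2.0 µM. In A53T that sum lay between 2836 and 2845 in DMSO and between 4101 and 4194 at 2.0 µM, where 3 of the 6 rose and Mbp and Cspg4 fell (-0.64 and -0.86). Summed fibroblast and pericyte markers (5 of 7 measured, with Dcn the most abundant) lay between 901 and 972 in vector in DMSO and between 434 and 456 at 2.0 µM, with 3 of the 5 down. In A53T they lay between 527 and 612 in DMSO and between 270.2 and 341 at 2.0 µM, with 1 of the 5 down. Of all genes, 23.8% fell in vector at 2.0 µM, and in A53T at 2.0 µM 19.7% rose and 17.9% fell. The 1 of 5 fibroblast and pericyte markers down in A53T is near that share. The part of these cell types in the NFAT results was not tested.

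The members did not move as a block. Nfatc2 fell at 2.0 µM FK506 in both kinds of culture, and Nfatc3 rose at the same dose. Nfatc1 and Nfat5 stayed within overlapping ranges in the vector groups. In A53T at 0.2 µM, Nfatc1, Nfatc3 and Nfat5 were all at their highest level, while Nfatc2 was not.

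**Figure D1:**
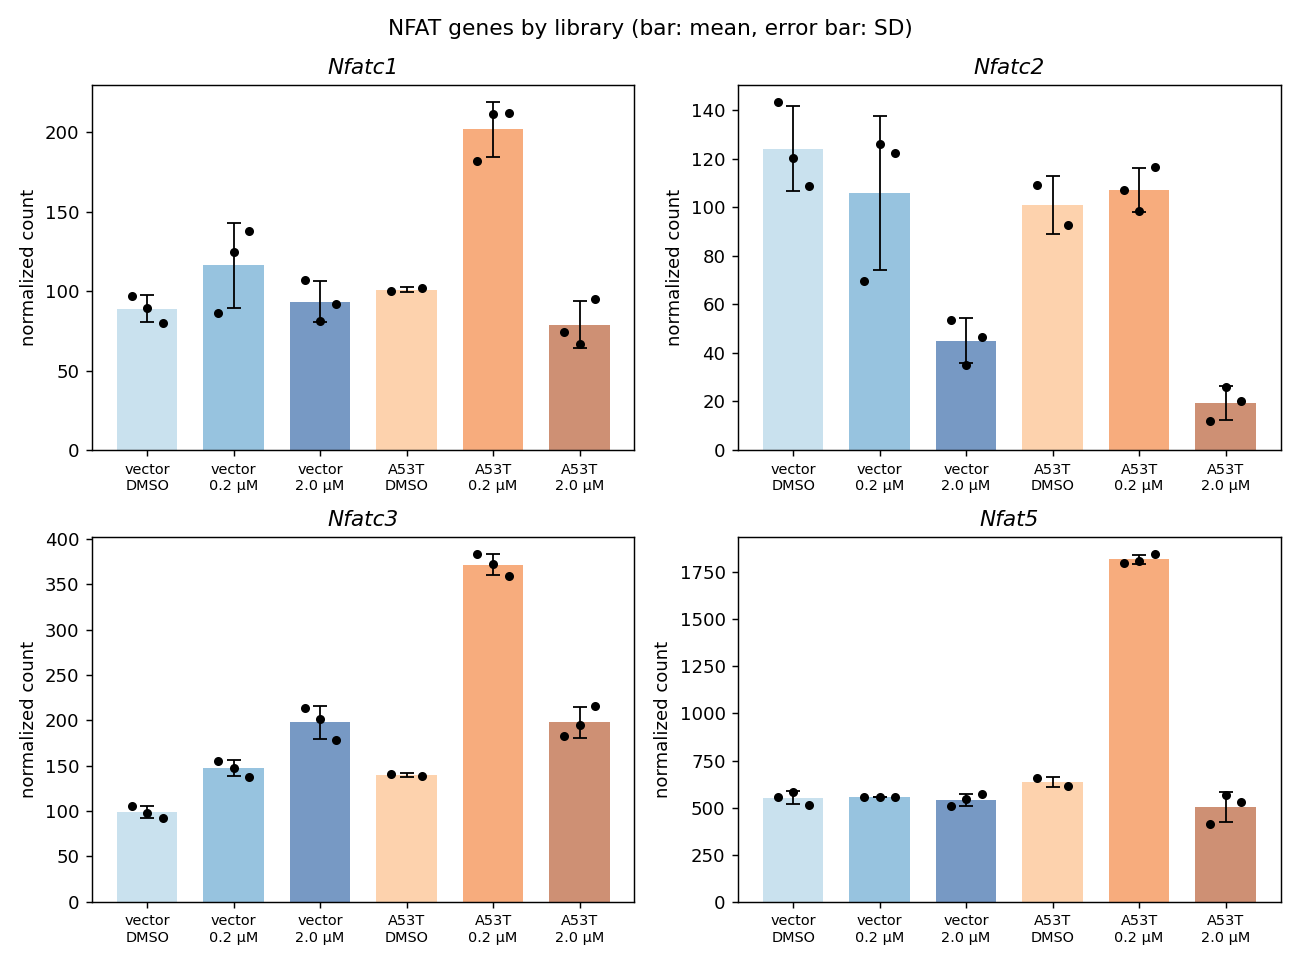
Normalized count of each NFAT gene (vertical axes, from 0) in the 6 groups; each point is 1 library, bars are means and error bars SD. Nfatc2 is lowest at 2.0 µM in both kinds of culture, Nfatc3 is lowest in vector in DMSO, and the 3 libraries of A53T at 0.2 µM, counted as 1 sample in the tests, are highest for Nfatc1, Nfatc3 and Nfat5.

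Nfatc2 (NFAT1) is the calcineurin-dependent member best known from T cells, where it drives cytokine genes. Its promoter is shown because this gene had the largest fall of the family and is the 1 member found in the RefSeq promoter table (GRCr8). The stretch below lies at chr3:177732925-177733224 on the minus strand, from 250 bases before the start site the table uses to 50 bases after it. Capitals mark the GC box GGGCGG and the E box CAGGTG, searched on both strands.

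Nfatc2 promoter: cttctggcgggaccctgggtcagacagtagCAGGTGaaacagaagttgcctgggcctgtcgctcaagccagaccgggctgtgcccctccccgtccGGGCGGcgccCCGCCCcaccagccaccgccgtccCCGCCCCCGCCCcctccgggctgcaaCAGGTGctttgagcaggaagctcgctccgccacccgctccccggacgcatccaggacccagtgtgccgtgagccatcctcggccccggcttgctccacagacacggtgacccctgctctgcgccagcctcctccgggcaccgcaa

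The window is 71.7% G and C, against a median of 51.7% over 33469 promoters of the same length. It holds 4 GC boxes, which begin at positions -155, -145, -121 and -115 from the start site and do not overlap, where 33.1% of all promoters hold at least 1. The E box occurs 2 times, at -220 and -95, and 18.8% of promoters hold it. The core letters bound by NFAT, GGAAA, and the AP-1 motif TGANTCA had 0 matches in this window on either strand, while 62.7% and 7.33% of promoters hold them.

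Nfatc2 measured 143, 120.3 and 109 normalized counts in vector in DMSO and 53.6, 35.1 and 46.6 at 2.0 µM. The groups did not overlap, and every treated library was below every control library. The fall was -1.45 ± 0.29 (adjusted p = 0.00119), the 157th lowest of all changes in a comparison in which 47.2% of genes passed (23.4% up, 23.8% down). At 0.2 µM the values were 69.5, 126 and 122, so 2 libraries lay among the controls and replicate 1 lay far below them. The change at that dose was -0.27 ± 0.29 (adjusted p = 0.534), or 0.01 without replicate 1. Set directly against 0.2 µM, the higher dose was lower by -1.19 ± 0.29 (adjusted p = 0.00741), in a comparison with 33.7% of genes past the test (18% up, 15.7% down).

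In A53T cultures Nfatc2 was 109 and 92.5 in DMSO and 11.9, 26.01 and 20.2 at 2.0 µM. The groups did not overlap, and the treated libraries were the lowest of all 17 for this gene. The fall was -2.38 ± 0.32 (adjusted p = 2.2e-04), the 33rd lowest of all changes, where 37.6% of genes passed (19.7% up, 17.9% down). Mean levels were 101 ± 11.8 (SD, n = 2) and 19.4 ± 7.10 (SD, n = 3).

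At 2.0 µM, Nfatc2 was also lower in A53T than in vector, by -1.22 ± 0.29 (adjusted p = 0.0119), with 19.6% of genes past the test (9.88% up, 9.7% down). This call was lost without replicate 1 of vector at 2.0 µM (adjusted p = 0.0548) and with only these 2 groups in the fit (adjusted p = 0.0745). The test of whether the drug effect itself differed between A53T and vector gave -0.93 ± 0.43 (95% interval -1.87 to 0.01, adjusted p = 0.151), and 14.6% of genes passed it (8.14% up, 6.45% down). A difference was therefore not shown, and the interval leaves room for one larger than the drug effect in vector. It passed without the 3 libraries that stood apart (-0.80, adjusted p = 0.0262), which were picked for their deviation. In DMSO, A53T and vector differed by -0.29 ± 0.32 (adjusted p = 0.584), with overlapping groups.

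From lowest to highest, the group means of Nfatc2 were A53T at 2.0 µM, vector at 2.0 µM, A53T in DMSO, vector at 0.2 µM, A53T at 0.2 µM and vector in DMSO. The first 2 did not overlap each other or any other group. The ranges of the remaining 4 all overlapped.

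The genes with the pattern most like that of Nfatc2 over the 15 samples were Slc17a7, the vesicular glutamate transporter of cortical neurons (Pearson r = 0.986), Lmo7 (0.985) and Synpo, an actin-linked protein of dendritic spines (0.984). These samples share groups and libraries, so the values only describe likeness. In each of the 3 libraries that deviated most within their groups, Nfatc2 and Slc17a7 were both at the lowest value of the group. Over all genes, the deviations of these 3 libraries correlated with each other (r from 0.623 to 0.669). The part of this shared deviation in the likeness was not tested. Without the A53T sample at 0.2 µM, a choice made after seeing the data, Lmo7 and Slc17a7 were again among the 3 closest over 14 samples. Slc17a7 went from 7945 ± 553 to 4841 ± 529 (SD, n = 3 each) between DMSO and 2.0 µM in vector. In A53T it went from 6913 ± 341 (SD, n = 2) to 3130 ± 781 (SD, n = 3). It fell by 0.72 and 1.18 on the log2 scale (adjusted p = 0.00315 and 5.7e-04), against -1.45 and -2.38 for Nfatc2; the difference between the genes was not tested.

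Of the 12 neuron markers, 6 fell in vector at 2.0 µM, where 23.8% of all genes fell, and 9 fell in A53T, where 17.9% of all genes fell; 0 rose in either. Their summed level was 64.8% to 69.7% of the vector DMSO mean in vector at 2.0 µM and 69.2% to 77.9% in A53T at 2.0 µM. Nfatc2 stood at 28.3% to 43.2% and 9.58% to 21.0% of its own mean in those libraries. All 3 GABAergic neuron markers (Gad1, Gad2 and Slc32a1) fell in both as well, with medians of -1.15 and -0.68. Summed astrocyte markers were at 42.7% to 44.7% and 46.4% to 51.5%, but the list did not move as one. Of its 9 genes, 7 fell and 2 rose in vector (median -0.89), and 4 fell and 2 rose in A53T (median -0.19). The filament gene Gfap, an abundant member of that sum, fell in both (-1.76 ± 0.08 and -2.42 ± 0.09), and the glutamate transporter Slc1a2 rose in both (1.04 ± 0.14 and 0.62 ± 0.16). In these bulk cultures fewer cells of a type and less RNA per cell cannot be told apart, and the part of cell makeup in the fall of Nfatc2 was not tested.

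**Figure D2:**
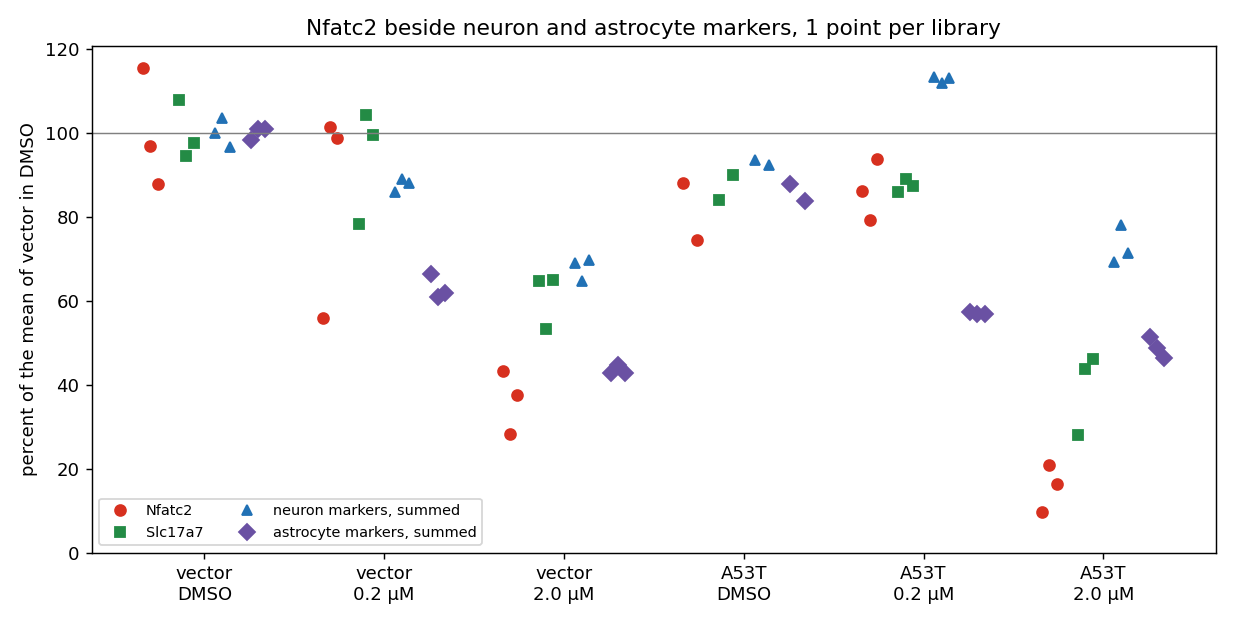
Level in each library as a percent of the mean of vector in DMSO (vertical axis, from 0) for Nfatc2, Slc17a7, the summed 12 neuron markers and the summed 9 astrocyte markers; each point is 1 library. At 2.0 µM Nfatc2 is below Slc17a7 and below the neuron sum in every library, and below the astrocyte sum in all but replicate 1 of vector, where it is at 43.2%.

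Nfatc3 (NFAT4), a calcineurin-dependent member found in neurons and in immune and muscle cells, moved the other way. It measured 106, 97.9 and 92.9 in vector in DMSO, 156, 148 and 138 at 0.2 µM and 214, 202 and 178 at 2.0 µM. The 3 dose groups did not overlap, and the levels climbed with each dose. The rise was 0.57 ± 0.11 at 0.2 µM (adjusted p = 0.00417), where 18.3% of genes passed (7.7% up, 10.6% down), and 0.99 ± 0.11 at 2.0 µM (adjusted p = 1.0e-05). The difference between the doses was 0.42 ± 0.11 (adjusted p = 0.00939). Nfatc3 was the only member that passed the test at 0.2 µM in vector, and these 3 calls held under all 27 alternative settings.

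Nfatc3 was also higher in A53T without drug, at 141 and 138 normalized counts. The A53T libraries lay above all 3 vector libraries in DMSO and inside the range of vector at 0.2 µM. The difference from vector was 0.49 ± 0.12 (adjusted p = 0.0165), in a comparison in which 14% of genes passed (5.85% up, 8.19% down). It was the 1 NFAT gene that passed there. The call was lost without either A53T library (adjusted p = 0.126 without replicate 1 and 0.0974 without the unnumbered one), without replicate 3 of vector in DMSO (0.0585) and with a block by title numbers (0.0971), while the value stayed between 0.43 and 0.55.

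At 2.0 µM in A53T, Nfatc3 was 182, 195 and 216, above both DMSO libraries. It rose by 0.50 ± 0.12 (adjusted p = 0.00755), but did not pass without the unnumbered DMSO library (adjusted p = 0.061) or in a fit of only those groups (0.0638). At that dose A53T and vector had nearly the same level, 198 ± 17.02 and 198 ± 18.1 (SD, n = 3 each), and the difference had a 95% interval of -0.23 to 0.23. The drug effect was smaller in A53T than in vector by -0.49 ± 0.16 (95% interval -0.84 to -0.15), which did not pass over all genes (adjusted p = 0.0582). It passed with the 17 libraries entered separately (0.0269), with a block by column numbers (0.0376) and without replicate 3 of A53T at 2.0 µM (0.0332). The first 2 of these settings count the 3 libraries of A53T at 0.2 µM as replicates, although they differed by no more than sampling noise.

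The group means of Nfatc3 ran from vector in DMSO through A53T in DMSO, vector at 0.2 µM, A53T at 2.0 µM and vector at 2.0 µM to A53T at 0.2 µM. A53T in DMSO overlapped vector at 0.2 µM, and the groups at 2.0 µM overlapped each other. The other neighbours did not. The closest patterns over 15 samples were those of the dynein adaptor gene Bicd2 (r = 0.970), the helicase-like gene Hltf (0.969) and Fam214a (0.968). Without the A53T sample at 0.2 µM, Myh11 (0.978), Senp6 (0.9755) and Rad17 (0.972) were the closest instead.

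Nfatc1 (NFAT2), the member known for heart valve and osteoclast development, showed no change in vector that passed the test. It measured 97.1, 89.7 and 80.1 in DMSO, 86.3, 125 and 138 at 0.2 µM and 107, 81.2 and 92.1 at 2.0 µM. The 3 ranges overlap, and the widest is that at 0.2 µM, where replicate 1 is the low library. The change at 0.2 µM was 0.36 ± 0.19 (95% interval -0.05 to 0.77, adjusted p = 0.195). Without replicate 1 it was 0.56 and passed (adjusted p = 0.0356), as did the difference between the doses (-0.49, adjusted p = 0.0415). At 2.0 µM the change was 0.07 ± 0.19 (95% interval -0.34 to 0.48).

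In A53T, Nfatc1 was 100.1 and 102 in DMSO and 74.1, 67.0 and 95.3 at 2.0 µM. The difference of -0.37 ± 0.21 did not pass (adjusted p = 0.173). A53T and vector differed by 0.19 ± 0.21 in DMSO (adjusted p = 0.594). In both comparisons the ranges did not overlap, but with so few libraries that is no test. The share of all genes without overlap was not counted. All neighbours in the order of the group means of Nfatc1 overlapped, apart from A53T at 0.2 µM at the top. Its closest patterns were those of Rab11fip2 (r = 0.965), Wdr19 (0.964) and Tulp4 (0.960). Without the A53T sample at 0.2 µM they were those of Rab11fip2 (0.938), Tulp4 (0.933) and Kif1b (0.9275).

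Nfat5, the member whose protein lacks the calcineurin-binding region, was flat across the vector groups. It measured 558, 584 and 516 in DMSO, 554, 556 and 559 at 0.2 µM and 507, 547 and 572 at 2.0 µM. The changes were 0.01 ± 0.10 and -0.03 ± 0.10, with 95% intervals of -0.21 to 0.23 and -0.25 to 0.20. In A53T it was 656 and 616 in DMSO and 413, 567 and 532 at 2.0 µM. All 3 treated libraries lay below both DMSO libraries, and Nfat5 fell by 0.35 on the log2 scale (SE 0.12, adjusted p = 0.0328). That fall was lost without replicate 1 of A53T at 2.0 µM (-0.21, adjusted p = 0.0773), without either DMSO library (0.169 and 0.0972) and in a fit of only those groups (0.15). In order, the means of A53T at 2.0 µM and the vector groups overlapped their neighbours, while A53T in DMSO and A53T at 0.2 µM lay above without overlap.

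A53T at 0.2 µM gave the largest values of 3 members. Nfat5 was 1800.5, 1811 and 1846 in its libraries, against at most 656 in any other. Nfatc3 was 383, 372 and 359, and Nfatc1 was 182, 211 and 212. This arm is 1 sample, so each test here rests on the spread of the other groups and has no replicate check of its own. Against A53T in DMSO the differences were 1.52 ± 0.15 for Nfat5 (adjusted p = 1.3e-05), 1.41 ± 0.16 for Nfatc3 (2.9e-05) and 0.99 ± 0.28 for Nfatc1 (0.00789). Nfatc2, at 107, 98.3 and 116, differed by 0.09 ± 0.43 (adjusted p = 0.861). In this comparison 33.6% of all genes were past the threshold upward and 34.2% downward. With 3 of 4 members past the test beside 67.8% of all genes, the count is near the background. After quantile normalization the difference of Nfatc1 was 0.45 and did not pass (adjusted p = 0.0947). Marker genes moved with these values in both directions. The astrocyte sum was 51507 to 51983, against 75991 to 79623 in A53T in DMSO, and the neuron sum was 62629 to 63439 against 51677 to 52349.5. Within the lists, Slc1a2 was higher by 4.22 ± 0.21 and the dendritic gene Map2 by 4.41 ± 0.94, while Gfap was at -1.19 ± 0.12, S100b at -1.16 ± 0.13 and the tubulin gene Tubb3 at -0.75 ± 0.06. The neuron sum is weighted by Map2, which ran from 71.8 to 18734 over all libraries. The median change of the 12 neuron markers was 0.28. The most abundant of them, Stmn2, was at -0.79 ± 0.12, Slc17a7 at 0.01 ± 0.25 and Syt1 at 2.32 ± 0.86. The part of these markers in the NFAT values was not tested. The nearest patterns to Nfat5, Dnmt3a (r = 0.978) and Cand1 (0.976), were ranked over samples that include this one. Without it, Ube2g1 came first (0.926).

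**Figure D3:**
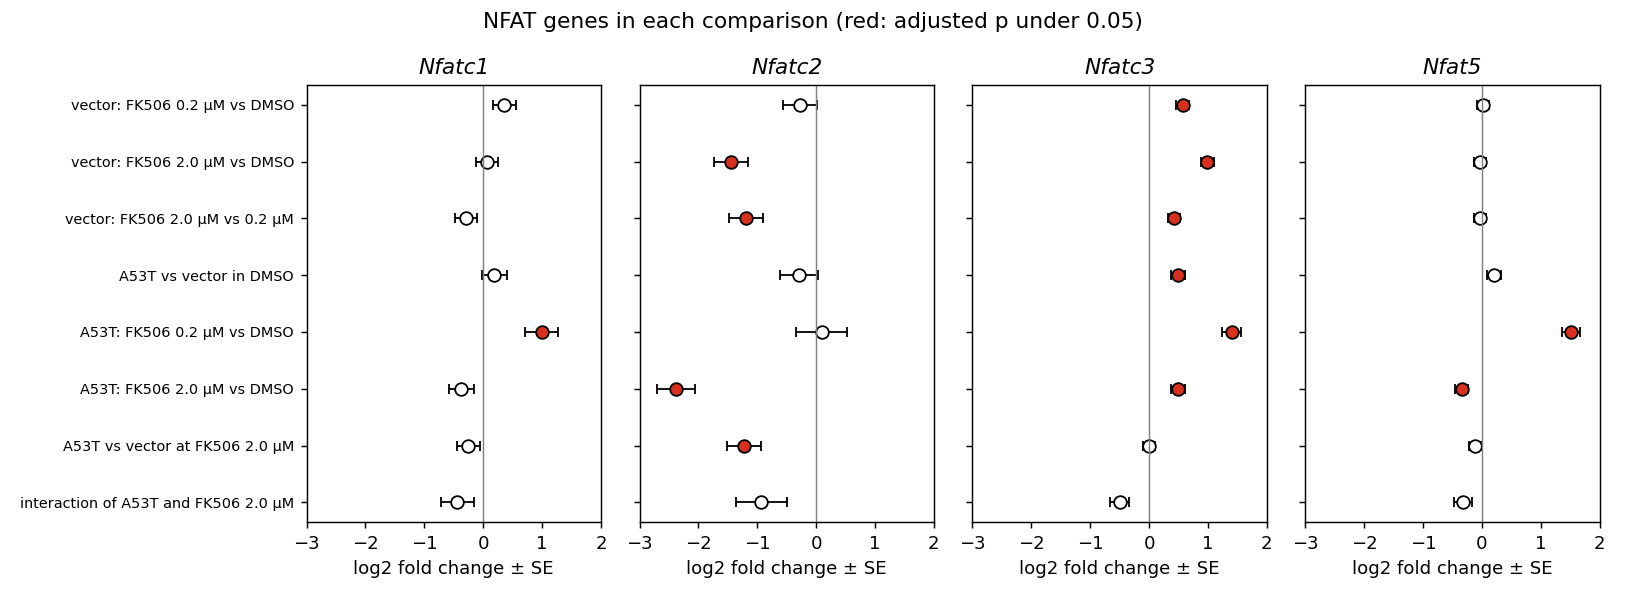
Log2 fold change of value + 1 with its standard error (horizontal axes) for each NFAT gene in the 8 comparisons tested; red points have an adjusted p under 0.05. Nfatc2 is red and negative in both comparisons of 2.0 µM with DMSO, Nfatc3 is red and positive in both, and none is red for the interaction.

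The genes that act around NFAT are described by counts, to be read beside the shares of all genes. At 2.0 µM, 23.4% of all genes rose and 23.8% fell in vector, and 19.7% rose and 17.9% fell in A53T. Shares for the other comparisons are given above. The median change over all genes was 0.00 in vector and 0.01 in A53T.

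Of 4 measured calcineurin subunit genes, 3 fell and 0 rose in vector at 2.0 µM (median -0.41), and 2 fell and 1 rose in A53T (median -0.42). The catalytic subunit Ppp3ca fell in both (-0.69 ± 0.16 and -0.73 ± 0.18). The regulatory subunit Ppp3r1 fell in vector (-0.39 ± 0.07) and was at -0.13 ± 0.08 in A53T. Of 8 inhibitors and anchors, 5 fell in vector and 3 in A53T, and 0 rose. The regulator Rcan2 fell in vector (-0.85 ± 0.05) and was at -0.15 ± 0.06 in A53T (adjusted p = 0.075), and the drug effect differed between them by 0.70 ± 0.08 (adjusted p = 3.3e-04). Akap5, which anchors calcineurin at the synapse, fell in both (-0.91 ± 0.31 and -1.64 ± 0.35). Homer2, a synaptic scaffold that binds NFAT, fell in vector (-1.01 ± 0.19) and was at -0.25 ± 0.21 in A53T. Homer3 was at -0.19 ± 0.12 in vector and fell in A53T (-0.78 ± 0.14).

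Of the FK506-binding proteins, Fkbp1a, which encodes FKBP12, was at -0.17 ± 0.09 in vector and 0.07 ± 0.10 in A53T, and its close relative Fkbp1b fell in vector (-0.44 ± 0.11) and was at -0.27 ± 0.12 in A53T. Of 10 genes for calcium entry and release, 4 fell and 1 rose in vector, and 2 fell and 0 rose in A53T. In either direction, 47.2% of all genes passed in vector and 37.6% in A53T. The calcium sensor of the endoplasmic reticulum, Stim1, fell in vector (-0.32 ± 0.06) and was at -0.13 ± 0.07 in A53T. The L-type channel gene Cacna1d was at 0.01 ± 0.21 in vector and fell in A53T (-0.93 ± 0.23).

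Of 14 kinases that phosphorylate NFAT, 5 fell and 2 rose in vector, where 23.8% of all genes fell and 23.4% rose. In A53T, 8 fell and 1 rose, beside 17.9% and 19.7% of all genes. Dyrk2 fell in both (-0.69 ± 0.09 and -0.46 ± 0.10), as did Mapk10, a neuronal JNK (-0.54 ± 0.06 and -0.36 ± 0.06). Gsk3b encodes a kinase that phosphorylates NFATc proteins so that they leave the nucleus. It rose in vector (0.91 ± 0.15) and was at -0.12 ± 0.17 in A53T. Csnk1d, a casein kinase, rose in both (0.31 ± 0.04 and 0.15 ± 0.05).

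Of the partners that bind DNA beside NFAT, many of them AP-1 subunits, 11 were measured. Of these, 4 rose and 2 fell in vector, and 2 rose and 6 fell in A53T. Fosl1 rose in vector (1.87 ± 0.12) and fell in A53T (-0.90 ± 0.14), and Fosl2 did likewise (1.21 ± 0.18 and -1.57 ± 0.20). Jun rose in both (1.32 ± 0.05 and 0.57 ± 0.06), and Fosb fell in both (-1.20 ± 0.22 and -2.27 ± 0.25). For 4 of the 11 genes the drug effect was lower in A53T by the interaction test, and for 0 it was higher.

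Genes reported as NFATc targets had 6 of 14 measured, and the cytokine genes of T cells on the list were not analysed here. Of the 6, 4 fell in vector at 2.0 µM and 5 in A53T, and 0 rose (medians -0.93 and -0.97). The neurotrophin Bdnf fell in both (-1.96 ± 0.12 and -1.30 ± 0.13), as did the zinc finger gene Egr3 (-1.21 ± 0.41 and -2.74 ± 0.46) and the calcium release channel Itpr1 (-0.65 ± 0.13 and -0.65 ± 0.14). Ptgs2, the inducible cyclooxygenase, was at -1.26 ± 0.61 in vector (adjusted p = 0.107) and fell in A53T (-3.43 ± 0.68). These genes also answer to other activity-driven factors.

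Of 7 measured Nfat5 targets, 2 rose in vector at 2.0 µM and 1 in A53T, and 0 fell. The numbers that rose are near the shares of all genes that did, 23.4% and 19.7%. The chaperone Hspa1b rose in vector (1.79 ± 0.07) and was at -0.04 ± 0.08 in A53T. Aldose reductase, Akr1b1, which makes the osmolyte sorbitol, was at 0.22 ± 0.11 in vector and rose in A53T (0.46 ± 0.12). In the 1 sample of A53T at 0.2 µM, where Nfat5 was highest, the 7 targets went in both directions. Their median change was 0.93, with no replicate check within that arm. There the inositol transporter Slc5a3 differed from A53T in DMSO by 5.32 ± 0.46, the taurine transporter Slc6a6 by 3.23 ± 0.82 and Akr1b1 by -0.83 ± 0.16. Of 3 measured NF-kB genes, which share the Rel-like domain, Nfkb2 and Rela rose in vector at 2.0 µM (0.91 ± 0.14 and 0.44 ± 0.09) and were at 0.38 ± 0.15 and 0.03 ± 0.10 in A53T. Nfkb1 was at -0.02 ± 0.09 in vector and fell in A53T (-0.58 ± 0.10).

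**Figure D4:**
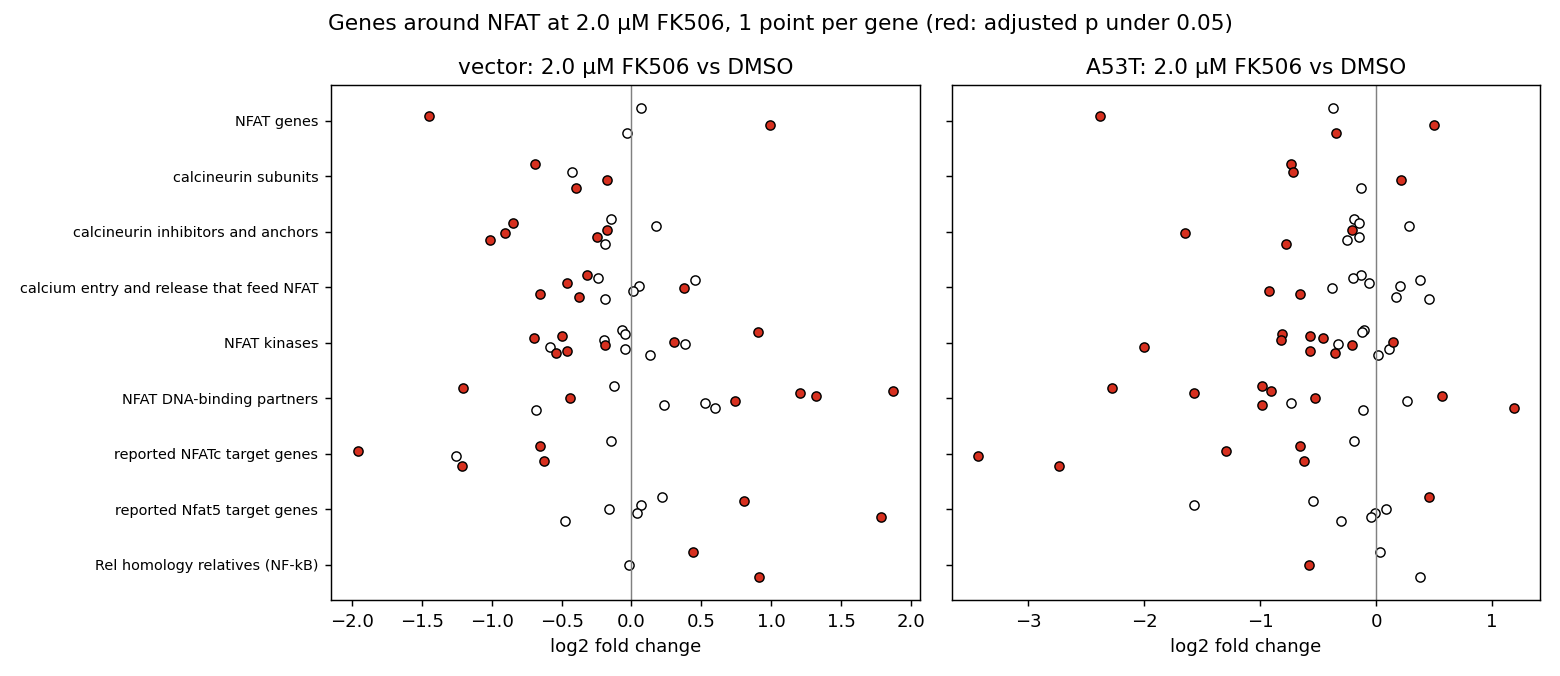
Log2 fold change of value + 1 at 2.0 µM FK506 against DMSO (horizontal axes, with different ranges) in vector (left) and A53T (right) for the NFAT genes and 8 lists around them; each point is 1 gene and red points have an adjusted p under 0.05. The reported NFATc targets lie below 0 in both panels, and the DNA-binding partners lie mostly above 0 in vector and mostly below 0 in A53T.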

How the data were processed

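RNA was measured in 17 libraries made with a stranded mRNA kit, per the labels' protocols. The submitters' processing notes name FastQC, TopHat, HTSeq and build rn6 of the rat genome. How the authors normalized the deposited counts, and with which versions, is not given in the sources used here. Gene counts, normalized, fill the deposited table, which has 1 column per library, treated as a signal. In 11 of 17 libraries at least 95% of the lowest values lay within 0.1 step of whole multiples of a single step, but not in the others, so whole reads were not recovered and no count model was used. Without the raw depth no interval for counting error is given.

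The 2 samples of A53T in DMSO are numbered 1 and 2 in the titles, while the columns carry 1 and 3, so the second was used without a number. The log2(value + 1) of each gene went into limma 3.58.1 (trend) in R 4.3.3, in 1 fit of 15 samples and 6 groups with 9 residual degrees of freedom, 8 contrasts, no filter, and Benjamini-Hochberg adjustment over all 11247 genes. The fit was tested on simulated data. Replicate pairs were compared over genes with a mean of 10 to 3000.

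The members, gene lists and tests were chosen with earlier results of these data known. Named genes were all measured members, at most 4 genes per list by smallest p at 2.0 µM, and the 3 genes with the highest Pearson correlation to each member. Gene symbols and the promoter came from RefSeq tables of GRCr8, where 10458 labels matched a current symbol; 23 labels that look like dates were tested but not named. The results of 1 further list are not reported here, apart from its FK506-binding proteins. Alternatives were pseudocounts of 0.25 and 4, a minimum mean of 50, quantile normalization, 17 separate libraries, only the groups compared, replicate blocks, and left-out libraries. The settings with 17 separate libraries and with replicate blocks count the libraries of A53T at 0.2 µM as replicates.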

Additional observations from a re-analysis of the deposited data

How the results depend on the processing

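Of 860 values of the 4 genes in 8 comparisons under other settings, 839 kept their side of the threshold, 13 lost the call, 8 gained it, and 0 called values changed sign. Counts of all genes called moved by over 1.5 times as follows. With no other group in the fit, A53T against vector in DMSO went from 1579 to 4174, A53T at 2.0 µM against DMSO from 4233 to 1786, and A53T against vector at 2.0 µM from 2202 to 688. With a replicate block by title numbers these were 743 and 2540 for the first 2, and the interaction went from 1641 to 955. Without the 3 libraries that stood apart, vector at 0.2 µM went from 2056 to 5897, A53T against vector from 1579 to 4390 in DMSO and from 2202 to 3763 at 2.0 µM, and the interaction to 4254. Leaving out each library in turn gave 980 to 3012 genes for vector at 0.2 µM, 4523 to 5939 at 2.0 µM and 2670 to 4700 between the doses. It gave 413 to 2279 for A53T against vector in DMSO, 6608 to 8008 for A53T at 0.2 µM, 1837 to 4880 for A53T at 2.0 µM, 1192 to 2960 for A53T against vector at 2.0 µM and 632 to 2615 for the interaction. Leaving out either A53T library in DMSO, which leaves 1 library assumed to vary like the other groups, moved the counts of A53T against vector in DMSO, A53T at 2.0 µM and the interaction by over 1.5 times. Single replicates of vector in DMSO (1, 2 and 3), vector at 0.2 µM (2 and 3), vector at 2.0 µM (1 and 3) and A53T at 2.0 µM (3) did so in at least 1 comparison. Without the group A53T at 0.2 µM its own comparison has no value. The cause of these shifts was not tested. The deviations of libraries with the same column number had correlations from -0.51 to 0.669, and 15 of 26 such pairs were at or under 0.1. Among pairs with different numbers, 27 of 52 were. Pairing by number was thus not shown, but deviations taken within such small groups cannot exclude it. The block by title numbers also leaves out the unnumbered library and ended the call of Nfatc3 in A53T against vector in DMSO (adjusted p = 0.0971); the block by column numbers brought Nfatc3 past the threshold for the interaction (0.0376), and neither changed another call of an NFAT gene. Without the 3 libraries that stood apart, Nfatc1 in vector at 0.2 µM (adjusted p = 0.00974) and Nfat5 in A53T against vector in DMSO (0.0451) passed. The adjusted p of Nfatc3 for the interaction ran from 0.0269 to 0.225 over 27 settings, and that of A53T against vector in DMSO from 0.00525 to 0.126.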
